A study of Homo sapiens with 8 samples.

Results

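The cytoplasmic ribosomal proteins are the structural proteins of the 2 subunits of the ribosome that translates nuclear-encoded mRNA. They were defined here as every array probe whose gene name in the scanner annotation reads RPL or RPS followed by a number, with the endings A, X or L allowed, or is RPLP0, RPLP1, RPLP2 or RPSA. The rule found 200 of 41000 probes, under 83 gene names. Of these, 113 probes belonged to 42 genes of the large subunit, 70 to 30 genes of the small subunit, 6 to the 3 stalk genes and 11 to 8 paralogues whose names end in L or L1. No probe carried the name RPSA.

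The arrays measured total RNA of CAL-27, an established human cell line from a head and neck squamous carcinoma. All cells, controls included, had gone 24 h without serum before a further 24 h of treatment. The groups were control cells (n = 3), cells given 10 µM enzastaurin (n = 3) and cells given Go (n = 2). Enzastaurin is a small-molecule inhibitor of protein kinase C, and the series title places Go in the same class; the dose of Go is not given in the sources used here, so the doses cannot be said to match. All groups come from 1 line, and the labels do not say if each replicate was its own culture. The p-values therefore cover the spread among these samples, which may be technical.

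Ribosomal proteins are made in matched amounts and are among the most abundant mRNAs of a growing cell. Their mRNAs usually begin with a terminal oligopyrimidine (TOP) tract, a C followed by a run of pyrimidines, through which mTOR and LARP1 control translation. Their genes have also left many processed copies in the genome, so that probes for different copies can bind the same mRNA.

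Start regions of some genes with large changes are shown because the tract sits at the start site. Those of the stalk genes RPLP0 and RPLP2 and of the paralogues RPL36AL, RPL7L1 and RPS27L are shown as well. RefSeq promoter sequence (GRCh38.p14) was matched by symbol for 66 of the 83 names. Each window holds 30 bases, 20 before the start site and 10 from it on, 5′ to 3′ on the gene's strand. Capitals mark the 5-base motifs CTTTC and CTTTT, with CTCTT and CCTTT, and with CTTCC and CTTCT, which overlap one another and were chosen after member sequences had been seen.
RPS14, chr5:150449730-150449759, minus strand: tcgctccgccccctcccactctCTCTTTCc
RPL21, chr13:27251538-27251567, plus strand: cgccgcggccccgcCTCTTTCCTTTCggcc
RPL17, chr18:49492456-49492485, minus strand: CTCTTCCTCTTTCcctaagcagcctgaggt
RPS21, chr20:62387083-62387112, plus strand: tgccgggtgactagctgCTTCCTTTCtctc
RPL24, chr3:101686709-101686738, minus strand: gtCTCTTCCcatgattctCTCTTTCTTTTc
RPS23, chr5:82278345-82278374, minus strand: ctcCTTCCtgcggtgCTTCTCTCTTTCgct
RPS26, chr12:56041898-56041927, plus strand: gctgggagacacataacctcgattttcttc
RPL13A, chr19:49487588-49487617, plus strand: ccctgcgacaaaacctcctCCTTTTccaag
RPLP0, chr12:120201102-120201131, minus strand: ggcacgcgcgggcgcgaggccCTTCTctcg
RPLP2, chr11:809947-809976, plus strand: gcCTCTTgcgtcggcgcCTTCCTTTTcctc
RPL36AL, chr14:49620617-49620646, minus strand: tccgcctgtttCTTCCCTTTCctgttaggc
RPL7L1, chr6:42879596-42879625, plus strand: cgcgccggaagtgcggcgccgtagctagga
RPS27L, chr15:63157468-63157497, minus strand: cccggaagttgatgccgagcgcagatcgct

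At least 1 of the 6 motifs stood on the gene's strand in 55 of 82 member windows (67.1%), against 7248 of 35116 windows of the same length over all genes (20.6%). Because the motifs were taken from member sequences, the higher share among members follows from that choice and only describes these windows. On the opposite strand the shares were 13.4% of member windows and 17.4% of all windows. By role, the motifs were found in 32 of 46 large-subunit windows, 17 of 26 small-subunit windows, 3 of 3 stalk windows and 3 of 7 paralogue windows. RPS14, which holds the largest rise below, and RPL13A, 1 probe of which fell, both hold a motif, while RPS26, RPL7L1 and RPS27L hold none. Among windows not shown, those of RPLP1 and RPL22L1 hold a motif and that of RPL10L holds none. For RPL26L1, one window holds CTTCC and another holds none. A match describes these letters only.

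The member probes were bright. Before any normalisation the median member value of an array lay between 12340 and 29720 intensity units, against 38 to 56 for the median of all probes, and members carried 10.1% to 11.6% of the summed signal. Of the 200 probes, 194 were above background (a signal-to-noise score over 3) on all 8 arrays, and 197 passed the filter for testing. The 3 that did not pass were 2 probes of RPL10 and 1 of RPS26. Saturated pixels occurred in 44 member probes of 33 genes, which is 36.4% of all 121 probes with such pixels. For 23 of them 50% or more of the pixels were saturated on at least 1 array, and 1 probe of RPL7A and 2 of RPS2 were in that state on all 8.

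Markers of cell types were examined, which cannot identify the line itself. KRT5, KRT14, KRT17, CDH1, DSG3 and SFN, genes of squamous epithelium, were above background on all 8 arrays, while the other 3 of 9 listed names were not found. Of 6 fibroblast genes none had a probe above background on all 8 arrays, but COL1A1 and LUM were above it on 7; LUM, a collagen-binding proteoglycan, had a mean log2 signal of 6.40 in control and 7.03 in enzastaurin arrays, with that of the Go arrays in between. PTPRC and PECAM1, defining genes of leukocytes and endothelium, were not above background on any. A probe of CD14, a probe of CD3E and a probe of VWF were above background on all 8; the CD3E probe had a mean log2 signal of 7.70 in control, 7.02 in enzastaurin and 7.30 in Go arrays. The part of the LUM and CD3E signals in the results was not tested.

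The spot positions place 4 arrays on each of 2 slides. Control 1, 2 and 3 lay with Go 1 on the first, and enzastaurin 1, 2 and 3 lay with Go 2 on the second, so enzastaurin and control were never measured on the same slide. Blocking the fit on slide links enzastaurin to control only through Go 1 and Go 2; the outcome is given beside the results as the slide-blocked value. In that fit Go minus control is Go 1 alone against the controls of its slide, and Go minus enzastaurin is Go 2 alone against the enzastaurin arrays of its slide, so each rests on a lone array assumed to vary like the others.

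Ribosomal protein probes were more often higher than lower with enzastaurin. Of 197 probes tested, 76 rose and 21 fell at an adjusted p below 0.05 (limma's moderated test, Benjamini-Hochberg adjusted over 24771 probes), and 100 did not pass. The share called was 49.2%, against a background of 51.9% of all probes; 38.6% rose against a background of 21.7%, and 10.7% fell against 30.2%. The median log2 difference was 0.15 over members and -0.08 over all probes. In the slide-blocked fit 7 members rose and 2 fell (4.57%, background 2.91%; 3.55% rose, background 1.4%), the median was 0.09, and 92 of the 97 called differences kept their sign. How strongly the split leaned to higher values depended on the scaling. Higher values made up 78.4% of the called members with quantile normalisation, 64.4% with scaling to the 75th percentile, 95.6% with scaling to the median and 99.1% without scaling. Without scaling the median over all probes was 0.25. The members' median stayed above that of all probes in each of 24 settings, by 0.12 to 0.29.

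**Figure D1:**
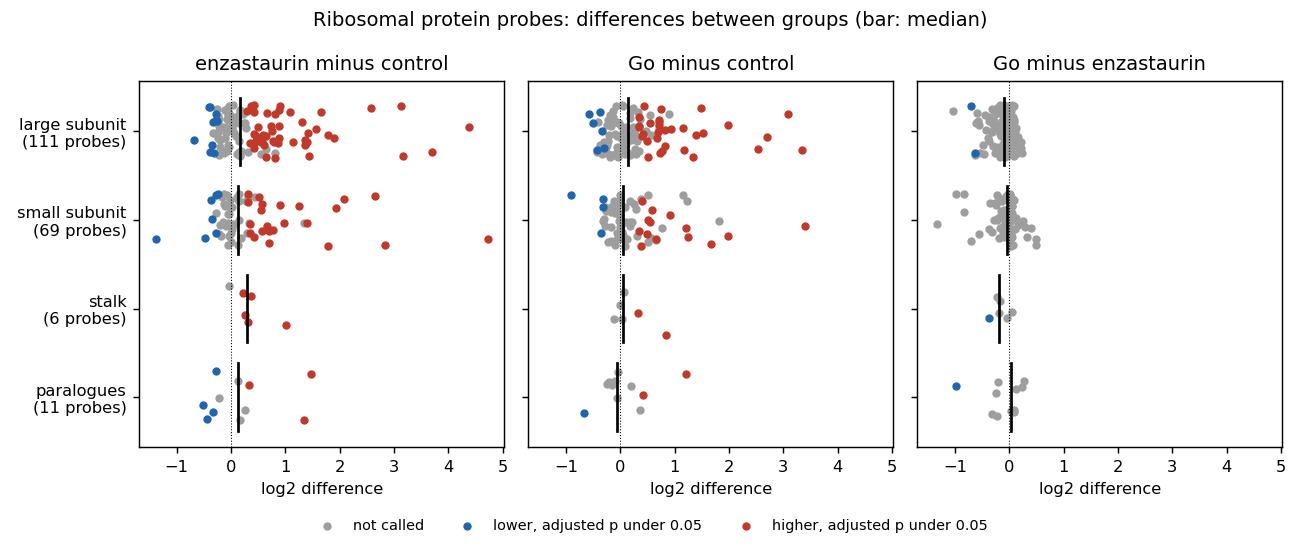
Each point is the log2 difference of 1 ribosomal protein probe between 2 groups, in 3 panels, by role; colours mark an adjusted p below 0.05 and black bars the median. With enzastaurin most coloured points lie above 0 and reach 4.72, while between Go and enzastaurin only 4 points are coloured.

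Large-subunit proteins frame the peptidyl transferase centre and the exit tunnel. Of 111 probes tested, 45 rose (40.5%, background 21.7%) and 10 fell (9.01%, background 30.2%) with enzastaurin, with a median log2 difference of 0.17.

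RPL21, a large-subunit protein with many copies in the genome, had 14 probes on the array. Its probe A_24_P357518 had log2 signals of 7.39, 7.87 and 8.75 in control, 12.32, 12.40 and 12.43 in enzastaurin, and 10.57 and 12.14 in Go arrays. The enzastaurin arrays lay close together above every control, and both Go arrays lay between. The log2 difference was 4.38 ± 0.43 (SE; limma, adjusted p = 0.00046), with a slide-blocked value of 2.81 (limma, adjusted p = 0.0577).

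RPL7, a core protein of the same subunit, gave a second such probe, A_32_P31182. Its log2 signal was 6.64, 7.86 and 9.43 in control, 11.69, 11.69 and 11.67 in enzastaurin, and 11.03 and 11.09 in Go arrays. The controls were spread widely but did not overlap the treated arrays. The enzastaurin minus control difference was 3.70 ± 0.57 (SE; limma, adjusted p = 0.00161; slide-blocked 3.64, adjusted p = 0.125).

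RPL17 lines the polypeptide exit tunnel. Probe A_32_P158746 read 9.54, 9.71 and 10.47 in control, 13.01, 13.12 and 13.09 in enzastaurin, and 11.95 and 12.95 in Go arrays on the log2 scale. No group overlapped another. The enzastaurin difference was 3.16 ± 0.29 (SE; limma, adjusted p = 0.000399; slide-blocked 2.16, adjusted p = 0.052).

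A second RPL21 probe, A_32_P202488, rose by 3.13 ± 0.54 with enzastaurin (SE; limma, adjusted p = 0.00244; slide-blocked 2.82, adjusted p = 0.173). Its controls read 9.27, 10.50 and 11.88 on the log2 scale, its enzastaurin arrays 13.58, 13.71 and 13.73, and its Go arrays 13.09 and 13.39. Control 3 stood closest to the treated arrays, without overlap. RPL24, a protein at the interface of the subunits, rose by 2.58 ± 0.42 at probe A_32_P100974 (SE; limma, adjusted p = 0.00204; slide-blocked 1.36, adjusted p = 0.269). Its control arrays read 10.66, 11.80 and 12.25, its enzastaurin arrays 14.04, 14.18 and 14.24, and its Go arrays 12.95 and 14.17, so Go 2 fell within the enzastaurin range.

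The falls were smaller. RPL13A, which is also known for binding interferon-regulated mRNAs once released from the ribosome, read 15.12, 14.97 and 14.97 in control, 14.42, 14.38 and 14.21 in enzastaurin, and 14.64 and 14.24 in Go arrays at A_32_P92295. All treated arrays lay below all controls. Its log2 signal fell by 0.69 ± 0.12 with enzastaurin (SE; limma, adjusted p = 0.00248), and the slide-blocked value was -0.29 (limma, adjusted p = 0.314). Probes of RPL18 and RPL29 fell by 0.39 and 0.38 with enzastaurin (limma, adjusted p = 0.00823 and 0.0108), but without scaling between arrays the same differences were 0.18 and 0.17. RPL4, a tunnel protein with 1 probe, read 14.37, 14.34 and 14.42 in control, 14.41, 14.47 and 14.45 in enzastaurin, and 14.19 and 14.14 in Go arrays. Control and enzastaurin overlapped, with a difference of 0.07 ± 0.07 (SE; limma, adjusted p = 0.438), while both Go arrays lay below them.

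Small-subunit proteins form the decoding site and the mRNA channel. Of 69 probes tested, 23 rose (33.3%, background 21.7%) and 7 fell (10.1%, background 30.2%) with enzastaurin. The median log2 difference was 0.13, and -0.003 in the slide-blocked fit.

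RPS14, a small-subunit protein whose loss is linked to the 5q- syndrome, held the largest difference of all members. Probe A_24_P808522 read 8.25, 8.76 and 9.27 in control, 13.47, 13.59 and 13.38 in enzastaurin, and 10.85 and 13.46 in Go arrays on the log2 scale. Go 2 lay inside the enzastaurin range and Go 1 between the other groups. The difference was 4.72 ± 0.57 with enzastaurin (SE; limma, adjusted p = 0.000746) and 2.11 in the slide-blocked fit (limma, adjusted p = 0.0594).

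RPS26, at the mRNA exit, rose at probe A_24_P289404 by 2.82 ± 0.47 (SE; limma, adjusted p = 0.00224; slide-blocked 0.71, adjusted p = 0.32). Its log2 signals were 9.42, 10.02 and 10.35 in control, 12.67, 12.79 and 12.81 in enzastaurin, and 10.86 and 12.98 in Go arrays. Go 1 was the lowest and Go 2 the highest of the treated arrays. Probes of RPS21 and RPS23, in contrast, kept their calls in the slide-blocked fit. RPS21, a short protein of the small subunit, read 11.98, 12.08 and 12.44 in control, 14.62, 14.85 and 14.99 in enzastaurin, and 13.31 and 14.35 in Go arrays at A_24_P280803. The groups did not overlap, and the enzastaurin minus control difference was 2.65 ± 0.25 (SE; limma, adjusted p = 0.000432; slide-blocked 1.61, adjusted p = 0.0378). RPS23, a protein of the decoding centre, read 13.23, 13.05 and 13.20 in control, 15.17, 15.29 and 15.28 in enzastaurin, and 13.85 and 14.96 in Go arrays at A_32_P84605. Its enzastaurin difference was 2.09 ± 0.24 (SE; limma, adjusted p = 0.000669; slide-blocked 0.98, adjusted p = 0.0289). The other slide-blocked rises were in 3 probes of RPL21 and in 1 each of RPS3 and RPL26L1. The slide-blocked falls were in RPS15A and RPS9; these slide-blocked calls were picked out after their values were seen.

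RPS2, a protein of the mRNA entry channel, held the largest fall. Probe A_24_P919460 read 10.04, 10.02 and 9.71 in control, 8.51, 8.53 and 8.57 in enzastaurin, and 9.44 and 8.61 in Go arrays. All treated arrays lay below the controls. The log2 signal fell by 1.39 ± 0.20 with enzastaurin (SE; limma, adjusted p = 0.00122), and the slide-blocked value was -0.56 (limma, adjusted p = 0.149). RPS15A fell at A_24_P221366, where controls read 13.89, 14.05 and 14.02, enzastaurin arrays 13.48, 13.56 and 13.50, and Go arrays 13.51 and 13.83. The fall was 0.48 ± 0.10 (SE; limma, adjusted p = 0.00561), the slide-blocked value -0.80 (limma, adjusted p = 0.0396), and the value without scaling 0.05.

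**Figure D2:**
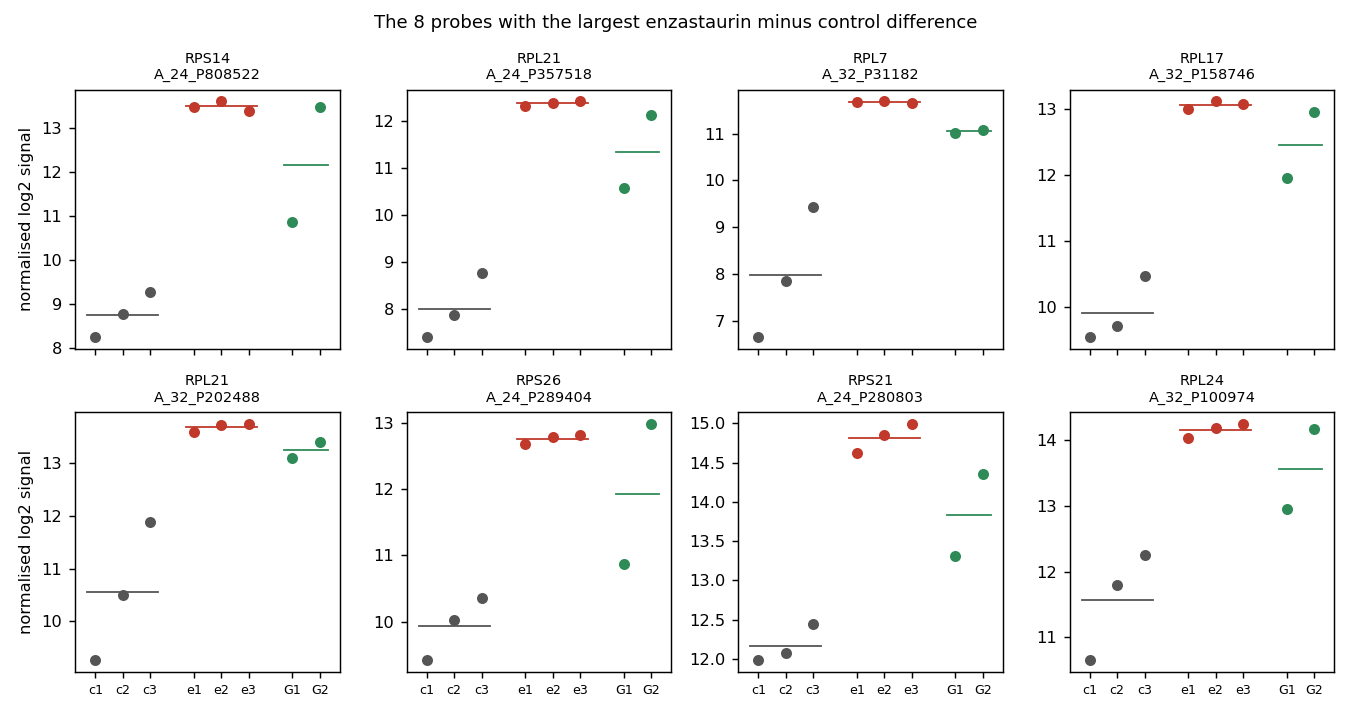
Normalised log2 signal (y axis, own scale in each panel) of the 8 probes with the largest enzastaurin minus control difference on each array, with control c1 to c3, enzastaurin e1 to e3 and Go G1 and G2; lines are group means. Enzastaurin arrays lie close together above the controls, and control 3 is the highest control in all 8 panels.

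The arrays of a group differed in a shared way at these probes. Among the 28 members that rose at least 2-fold (28 of 197, 14.2%; 5.96% of all probes did so), control 3 was the highest control for 25 (89.3%), against 88.3% of the 1476 such probes of all genes. Control 3 exceeded control 1 by a median of 0.93 log2 units over these 28, with a range from -0.17 to 2.90. Go 1 lay between the controls and the enzastaurin arrays for 27 of the 28 members and 1281 of the 1476 probes of all genes, and Go 2 lay above Go 1 for 25 and 1271. The part of these array differences in the results was not tested. By comparison, the members' median deviation from each probe's own mean was -0.10, -0.12 and -0.04 in control, 0.06, 0.11 and 0.06 in enzastaurin, and 0.00 and 0.04 in Go arrays.

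The stalk proteins recruit translation factors to the ribosome. Of their 6 probes 5 rose with enzastaurin (83.3%, background 21.7%) and 1 was not called. In the slide-blocked fit 0 were called by limma, and 0 had an unadjusted p below 0.05. RPLP2 read 14.53, 14.51 and 14.55 in control, 15.49, 15.56 and 15.57 in enzastaurin, and 14.91 and 15.82 in Go arrays. The treated arrays lay above all controls, and the Go arrays lay on either side of the enzastaurin range. The difference was 1.01 ± 0.20 (SE; limma, adjusted p = 0.00407), and 0.10 in the slide-blocked fit (limma, adjusted p = 0.645). RPLP0, the protein that anchors the stalk, rose at its 3 probes by 0.23, 0.26 and 0.31 (limma, adjusted p = 0.0413, 0.0155 and 0.0266). With scaling to the 75th percentile the values of the first and last of these turned to -0.13 and -0.09, and 63% and 78% of their pixels were saturated on at least 1 array. For RPLP1, A_32_P857658 rose by 0.37 ± 0.09 (SE; limma, adjusted p = 0.00843), while A_23_P37445, with up to 65% saturated pixels, stayed between 15.84 and 16 in all groups.

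The paralogues are separate genes that encode variants of a ribosomal protein. Of 11 probes 3 rose (27.3%, background 21.7%) and 4 fell (36.4%, background 30.2%) with enzastaurin. With the slide as a block limma called 1 rise and 0 falls, with 2 higher and 1 lower at an unadjusted p below 0.05. RPL26L1 read 10.70, 10.69 and 10.88 in control, 11.93, 12.18 and 12.18 in enzastaurin, and 10.95 and 11.29 in Go arrays at A_32_P205550. Enzastaurin arrays stood apart from all others, with a difference of 1.34 ± 0.12 (SE; limma, adjusted p = 0.000382; slide-blocked 1.0, adjusted p = 0.0469). A second RPL26L1 probe, A_32_P205553, rose by 0.33 (limma, adjusted p = 0.0205). The remaining one, A_24_P106306, read 12.35, 12.41 and 12.77 in control against 12.15, 12.31 and 12.40 in enzastaurin arrays and overlapped.

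RPL36AL rose by 1.47 ± 0.24 (SE; limma, adjusted p = 0.00212; slide-blocked 1.29, adjusted p = 0.165), from 12.09, 12.53 and 13.19 in control to 13.94, 14.06 and 14.21 in enzastaurin arrays, with Go at 13.73 and 13.91. RPL22L1, the paralogue of RPL22, read 14.01, 13.80 and 13.87 in control, 13.35, 13.33 and 13.45 in enzastaurin, and 13.75 and 13.54 in Go arrays. It fell by 0.52 ± 0.09 with enzastaurin (SE; limma, adjusted p = 0.00281), with a value of 0.01 without scaling. RPL7L1 (A_23_P42163), RPL3L and RPS27L fell by 0.45, 0.33 and 0.27 (limma, adjusted p = 0.0334, 0.0305 and 0.0214). For RPL7L1 the value was 0.15 in the slide-blocked fit and 0.09 without scaling, and for RPS27L it was 0.27 without scaling. RPL3L was dim, with a mean log2 signal of 6.80 in control, and its fall was weaker in 7 of 21 other settings. RPL10L and RPL39L differed by 0.13 and 0.25 and did not pass (limma, adjusted p = 0.272 and 0.0735).

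Probes of the same gene often gave different answers. For 56 genes at least 2 probes were tested, 170 probes in all. With enzastaurin, every tested probe rose for 8 of these genes and none was called for 15. Calls were mixed for the rest: 18 had probes that rose and probes that did not pass, 6 had falls and probes that did not pass, and 9 had both rises and falls. The log2 difference spanned a median of 0.62 between the lowest and highest probe of a gene, and more than 1 in 21 genes. The same counts for other genes are not given here, and 51.9% of all probes were called. The mixture of calls is therefore not shown to be particular to ribosomal protein genes.

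RPS14 spanned 4.80. Beside the probe described above, A_24_P418239 rose by 1.26 ± 0.26 (SE; limma, adjusted p = 0.00483; slide-blocked 1.49, adjusted p = 0.142). The remaining probe, A_23_P81492, read 16 in each control, 15.89, 15.89 and 15.98 in enzastaurin and 15.96 and 15.92 in Go arrays, with 50% or more of its pixels saturated on all 3 controls, so its level there is only a bound.

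RPL21 spanned 4.72 over 14 probes, of which 10 rose, 2 fell and 2 did not pass. The falls, at A_32_P16747 and A_32_P57237, were 0.34 and 0.27 (limma, adjusted p = 0.0206 and 0.0248), with 0.05 and 0.11 without scaling. Both lay among the brightest RPL21 probes, between 14.53 and 15.17 on every array, whereas the 2 probes that rose most read 7.39 to 11.88 in controls.

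RPL7, RPL17, RPS26 and RPS21 spanned 3.80, 3.04, 2.86 and 2.53. In each of these 4 genes, the tested probe with the lowest signal rose most and at least 1 brighter probe was not called. A probe's signal reflects its own binding as well as the amount of mRNA. For RPL7 the brighter probe A_32_P155364 read 14.24, 14.66 and 14.86 in control and 14.37, 14.52 and 14.60 in enzastaurin arrays. RPS15A had 1 probe that rose by 1.93 and 2 that fell by 0.48 and 0.38. At the other end, the probes of RPL28, RPL3, RPS28, RPS19 and RPLP0 differed by 0.004, 0.04, 0.07, 0.08 and 0.08.

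**Figure D3:**
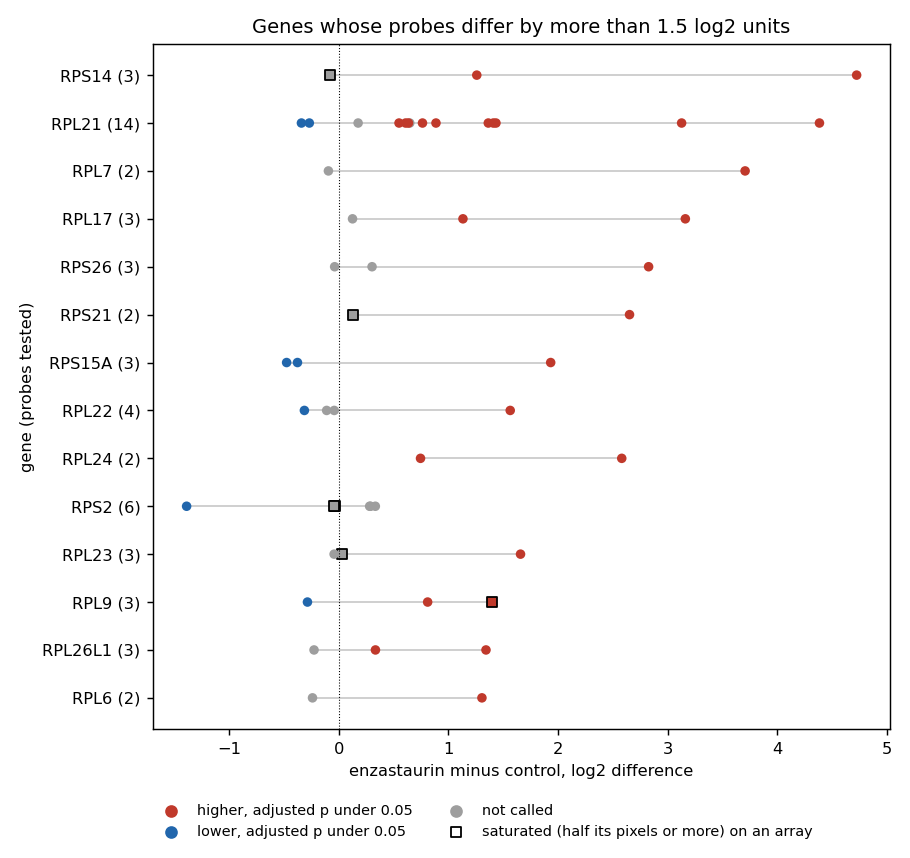
Log2 difference, enzastaurin minus control (x axis), of every tested probe of the 14 genes whose probes span more than 1.5 log2 units, with the number of probes in brackets. RPS14 and RPL21 span 4.80 and 4.72; black squares are probes with 50% or more saturated pixels on an array.

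The enzastaurin differences are given by mean log2 signal. Of 18 probes under 11, 4 rose and 3 fell, with a median of -0.01; of all probes in that range 21.3% rose and 29.2% fell. Of 29 probes between 11 and 13, 16 rose and 2 fell, with a median of 0.57, against 22.7% and 38.3% of all probes there. Of 39 probes between 13 and 14, 21 rose and 7 fell, with a median of 0.42, against 24.5% and 34.7%. The dimmest members thus had a median near 0, and the middle ranges the highest medians. Of 49 probes between 14 and 15, 16 rose and 9 fell, with a median of 0.10, against 26.9% and 30.7%. Of 62 probes over 15, 19 rose and 0 fell, with a median of 0.12, against 22.3% and 18.9%, and 42 of the 62 had saturated pixels. The 23 probes with 50% or more saturated pixels on an array had a median of 0.02, with 5 rises and 0 falls. The 21 with fewer saturated pixels had a median of 0.34, with 12 rises and 0 falls. The 153 without saturated pixels had a median of 0.16, with 59 rises and 21 falls.

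Where 50% or more of a probe's pixels are saturated on every array of a group, its level there is only a bound. RPL13 (A_24_P142228) was in that state on all 3 enzastaurin arrays and on no control, but some saturated pixels occurred on 7 of the 8 arrays, so controls were touched too. Its difference of 0.15 did not pass (limma, adjusted p = 0.108). For 8 further probes of RPL35, RPL7A, RPS14, RPS2, RPS27 and RPS28 a whole group was in that state, and no change could be measured above that limit. RPL35 had 4 probes, 3 of them with saturated pixels, and none was called by limma or had an unadjusted p below 0.05.

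**Figure D4:**
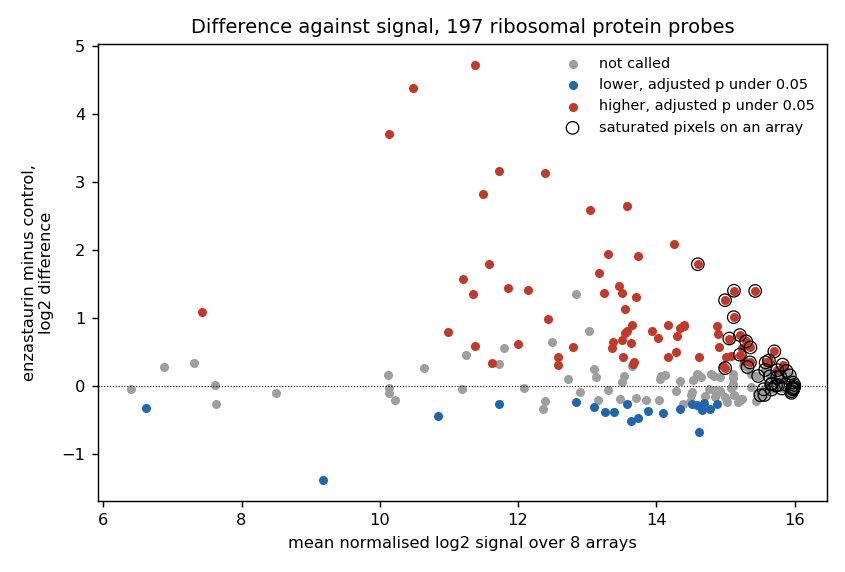
Log2 difference, enzastaurin minus control (y axis), against the mean normalised log2 signal over 8 arrays (x axis) for 197 probes; rings mark saturated pixels on at least 1 array. Differences above 2.5 lie between signals of 10 and 14, and those of the ringed probes range from -0.14 to 1.79.

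With Go, measured against the same controls, 49 probes rose and 11 fell (limma, adjusted p below 0.05). These were 24.9% (background 13%) and 5.58% (background 15.9%). The share called was 30.5% against a background of 28.8%, and the median log2 difference was 0.10 over members and -0.07 over all probes. In the slide-blocked fit 10 rose and 1 fell (5.58%, background 5.39%; 5.08% rose, background 3.3%). Higher values made up 81.7% of the called members, 83.3% with scaling to the 75th percentile, 93.8% with scaling to the median and 100% without scaling. Large-subunit probes gave 31 rises and 6 falls (27.9% and 5.41%), and small-subunit probes 14 and 4 (20.3% and 5.8%). Stalk probes gave 2 and 0 (33.3% and 0%), and paralogues 2 and 1 (18.2% and 9.09%). Over all probes 13% rose and 15.9% fell. The count depended on single arrays: 7 probes were called without control 2 and 29 without control 1. There were 34 to 36 without 1 of the enzastaurin arrays, which only add to the estimate of spread. With control and Go arrays alone limma called 0 members, while 67 had an unadjusted p below 0.05. The shares of all probes in these fits are not given here, so the counts do not set members apart from other probes.

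The largest Go differences were 3.40 ± 0.64 for RPS14 at A_24_P808522, 3.35 ± 0.48 for RPL21 at A_24_P357518, 3.08 ± 0.64 for RPL7 at A_32_P31182 and 2.54 ± 0.33 for RPL17 at A_32_P158746 (SE; limma, adjusted p = 0.0131, 0.00699, 0.0162 and 0.00571). In the slide-blocked fit RPS14, RPL21 and RPL17 had 2.10, 2.57 and 2.04 (limma, adjusted p = 0.016, 0.0203 and 0.0149), and RPL7 had 3.05 and was not called (limma, adjusted p = 0.0824); these values are Go 1 alone against the controls. RPL21 at A_32_P234738 read 12.37, 12.38 and 12.60 in control, 13.73, 13.82 and 13.88 in enzastaurin, and 13.45 and 13.75 in Go arrays. Both Go arrays lay above all controls, with a difference of 1.15 ± 0.12 (SE; limma, adjusted p = 0.00371) and a slide-blocked value of 1.0 (limma, adjusted p = 0.00753). RPS2 at A_24_P919460, RPL7L1 at A_23_P42163 and RPL13A at A_32_P92295 fell by 0.90, 0.66 and 0.58 (limma, adjusted p = 0.0237, 0.0248 and 0.0204), and none of the 3 was called in the slide-blocked fit.

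Measured directly against enzastaurin, Go gave 0 rises and 4 falls (limma, adjusted p below 0.05), 2.03% against a background of 3.83% in either direction and 1.74% for falls, with a median log2 difference of -0.07 over members and 0.01 over all probes. At an unadjusted p below 0.05, 5 probes were higher and 24 lower with Go, and limma with a variance trend and robust priors also called 0 rises and 4 falls. RPL26L1 at A_32_P205550, with the values above, fell by 0.98 ± 0.13 (SE; limma, adjusted p = 0.011; slide-blocked -0.81, adjusted p = 0.0302). RPL21 at A_24_P830667 read 11.03, 10.99 and 11.39 in control, 12.42, 12.65 and 12.65 in enzastaurin, and 11.85 and 11.89 in Go arrays. Go lay between the other groups without overlap, and the difference from enzastaurin was -0.70 ± 0.14 (SE; limma, adjusted p = 0.0353; slide-blocked -0.68, adjusted p = 0.0781).

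RPL5, which with RPL11 and 5S rRNA can restrain MDM2, read 11.33, 11.07 and 11.09 in control, 11.65, 11.79 and 11.82 in enzastaurin, and 11.06 and 11.19 in Go arrays at A_23_P12140. Go overlapped control and lay below enzastaurin by 0.63 ± 0.11 (SE; limma, adjusted p = 0.0234; slide-blocked -0.57, adjusted p = 0.0582). RPLP0 at A_23_P204472, measured by 10 spots per array, read 14.94, 14.89 and 14.95 in control, 15.14, 15.22 and 15.20 in enzastaurin, and 14.78 and 14.84 in Go arrays. After normalisation Go was below both other groups, and below enzastaurin by 0.38 ± 0.08 (SE; limma, adjusted p = 0.041; slide-blocked -0.35, adjusted p = 0.0786). Before scaling, the mean over spots was 15.21 and 15.09 in Go arrays, against 15.10, 14.92 and 15.19 in control. The difference from enzastaurin was weaker in 13 of 20 other settings. Without enzastaurin 2, or without enzastaurin 3, limma called 0 members (13 and 20 had an unadjusted p below 0.05). Without control 2 or enzastaurin 1 there was 1. Shares of all probes for these fits and for the unadjusted counts are not given here, so these counts do not set members apart. In the slide-blocked fit 3 members rose and 1 fell (2.03%, background 4.63%; 1.52% rose, background 2.08%). The rises were in 1 probe of RPS2 and 2 of RPS9; Go 2 was the highest array for all 3.

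**Figure D5:**
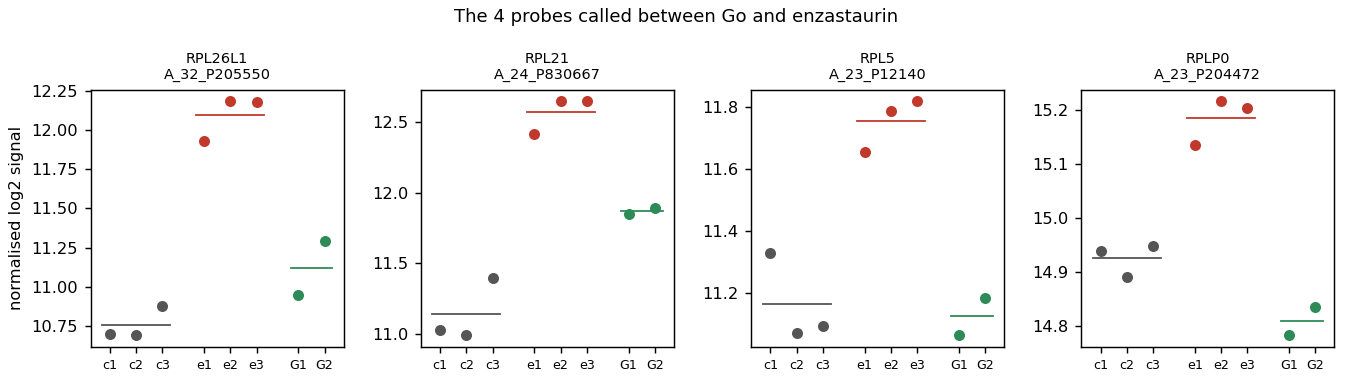
Normalised log2 signal (y axis, own scale in each panel) of the 4 probes called between Go and enzastaurin on each array, labelled c1 to c3 (control), e1 to e3 (enzastaurin) and G1 and G2 (Go); lines are group means. In all 4 panels both Go arrays lie below all enzastaurin arrays.

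Genes that work with the ribosome were described from lists of names. Mitochondrial ribosomal proteins, which serve the separate ribosome of mitochondria, gave 24 rises (23.1%, background 21.7%) and 41 falls (39.4%, background 30.2%) among 104 probes with enzastaurin, with a median of -0.12. After blocking on slide limma called 0 rises and 3 falls, with 10 higher and 23 lower at an unadjusted p below 0.05. MRPS26, with 1 probe tested, fell by 0.90, from 12.90, 12.72 and 12.60 in control to 11.84, 11.88 and 11.79 in enzastaurin arrays (limma, adjusted p = 0.000504; slide-blocked adjusted p = 0.0516). MRPS10 rose by 1.51 at A_23_P70417, from 9.06, 9.12 and 9.41 to 10.66, 10.74 and 10.73 (limma, adjusted p = 0.000497; slide-blocked adjusted p = 0.0573). The control and enzastaurin arrays of these 2 probes did not overlap. At A_24_P209285, in contrast, MRPS10 fell by 0.32 (limma, adjusted p = 0.0142), and at A_24_P283294 it differed by 0.09 with overlapping groups (limma, adjusted p = 0.709). With Go there were 15 rises (14.4%, background 13%) and 18 falls (17.3%, background 15.9%). Against enzastaurin there were 4 rises (3.85%, background 2.09%), among them 2 probes of MRPS12.

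Translation factors and other TOP mRNAs gave 18 rises (35.3%, background 21.7%) and 6 falls (11.8%, background 30.2%) among 51 probes with enzastaurin, with a median of 0.17. With the slide as a block limma called 2 rises and 0 falls, with 15 higher and 1 lower at an unadjusted p below 0.05. TPT1, which encodes the translationally controlled tumour protein, read 8.46, 10.56 and 12.34 in control, 14.52, 14.58 and 14.67 in enzastaurin, and 13.80 and 14.13 in Go arrays at A_24_P306726. Its controls were far apart without reaching the treated arrays, and it rose by 4.14 ± 0.79 (SE; limma, adjusted p = 0.00378; slide-blocked adjusted p = 0.202). The brighter TPT1 probe A_24_P179351 rose by 0.76 (limma, adjusted p = 0.00128), and A_32_P96213 differed by 0.08 (limma, adjusted p = 0.559). EEF2, the translocation factor, fell by 0.42 at A_24_P87763 (limma, adjusted p = 0.0125; slide-blocked adjusted p = 0.826). NPM1 fell further, by 1.44 at A_24_P826646 and 0.71 at A_32_P188674 (limma, adjusted p = 0.00438 and 0.00804). Its probes A_24_P188941, A_23_P214037 and A_32_P49423 rose by 1.16, 0.56 and 0.36 (limma, adjusted p = 0.00068, 0.00172 and 0.0162). The first of these had up to 70% saturated pixels, and A_24_P832113 was not called. With Go, 9 probes of the list rose (17.6%, background 13%) and 5 fell (9.8%, background 15.9%). Against enzastaurin 0 rose and 3 fell (5.88%, background 1.74%), with 1 higher and 14 lower at an unadjusted p below 0.05 (limma).

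Ribosome biogenesis genes gave 10 rises (19.6%, background 21.7%) and 24 falls (47.1%, background 30.2%) among 51 probes with enzastaurin, with a median of -0.23. In the slide-blocked fit limma called 0 rises and 1 fall, with 2 higher and 9 lower at an unadjusted p below 0.05 and a median of -0.08. TCOF1, a nucleolar factor of rRNA transcription, fell by 0.71 at A_24_P243396, from 9.10, 8.86 and 8.70 to 8.24, 8.17 and 8.13 (limma, adjusted p = 0.00174; slide-blocked adjusted p = 0.158), while A_23_P310317 differed by 0.03 (limma, adjusted p = 0.836). SBDS, which helps release a factor that keeps the subunits apart, rose by 1.33 at A_23_P70867, from 8.05, 8.77 and 9.51 to 10.06, 10.02 and 10.25 (limma, adjusted p = 0.00804; slide-blocked adjusted p = 0.269), and by 0.42 at A_32_P177024 (limma, adjusted p = 0.00903). Go gave 9 rises (17.6%, background 13%) and 10 falls (19.6%, background 15.9%). Between Go and enzastaurin limma called 0 of the 51 probes (background 3.83%), with 8 at an unadjusted p below 0.05.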

How the data were processed

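Total RNA was labelled with Cy3 and hybridised to 8 arrays, according to the labels. The deposited value table gives an intensity per probe; set against the scanner output it is linear, background-subtracted, not normalised and floored at 0.5. A signal-to-noise score per spot and the saturated share of its pixels, in percent, come from the GenePix tables, per the file headers. Their annotation runs end for end against the spots (Spearman correlation with the value table across probes 0.007 to 0.013 as deposited, 0.990 to 0.994 turned), so it was turned. Tools and settings used upstream of these files are not given in the sources used here.

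Values were log2(value + 50), quantile normalised. Probes with a score above 3 on at least 2 arrays (24771 of 41000) were fitted with limma 3.58.1 in R 4.3.3, with 3 groups (5 residual and 3.18 prior degrees of freedom) and Benjamini-Hochberg adjustment over all of them; 0.05 was the threshold. Fold changes of dim probes are understated by the added 50. The number of arrays limits the precision. A simulation was run with independent noise, no slide difference and 200 of 24771 probes changed. Its shares do not carry over to these data, where 51.9% of probes were called for enzastaurin against control. On simulated data with 200 changed probes, log2 changes of 0.5, 1 and 2 were recovered in 34.6%, 81.2% and 96.1% of cases for enzastaurin against control, and 4.32% of calls were false. The same shares were 22.4%, 76.4% and 93.9% with 6.65% false for Go against control, and 22.7%, 71.6% and 94.8% with 2.93% false for Go against enzastaurin.

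Named probes were the 8 largest rises and falls per comparison, paralogues, saturated members, the genes whose probes differ most and least, RPL4 and the stalk genes, with fewer taken in the text; some members are not reported by name here. Members and lists were chosen with earlier results of these data known. Alternatives covered the added constant, scaling, filters, saturation, 1 value per gene, blocks and single arrays.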

Additional observations from a re-analysis of the deposited data

How the results depend on the processing

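The members' median kept its sign in every setting tried, for all 3 comparisons; the counts of calls did not hold. With the slide as a block 9 members were called between enzastaurin and control and 11 between Go and control, with medians of 0.09 (enzastaurin minus control) and -0.03 (Go minus enzastaurin). With 1 value per gene the counts were 30, 15 and 0 for the brightest probe (medians 0.07, 0.04 and -0.03) and 43, 24 and 1 for the mean of probes (medians 0.22 and 0.17 against control), where fewer features are tested. Go against control gave 0 calls with only those 2 groups, and a median of 0.15 without probes with saturated pixels. Go against enzastaurin gave 2 calls with 16 added in place of 50 and 1 without scaling. The 3 medians, in the order enzastaurin minus control, Go minus control, Go minus enzastaurin, were 0.05, 0.03 and -0.02 with scaling to the 75th percentile, 0.29, 0.16 and -0.13 with scaling to the median, and 0.54, 0.30 and -0.25 without scaling; cyclic loess gave 0.19 for the first. Leaving out 1 array at a time gave 73 to 108, 7 to 82 and 0 to 27 calls, and medians of -0.11 to -0.03 for Go against enzastaurin. The causes were not tested, and the shares of all probes called in these settings are not given here.

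For enzastaurin against control, named differences turned sign without scaling (RPS15A 0.05, RPL18 0.18, RPL29 0.17, RPL22L1 0.01, RPL7L1 0.09, RPS27L 0.27, RPL21 0.05 and 0.11), with scaling to the median (RPS27L 0.01), with scaling to the 75th percentile (RPLP0 -0.13 and -0.09) and with the slide as a block (RPL7L1 0.15). Of the calls, 69 of 97, 7 of 60 and 0 of 4 were kept in every fit without 1 array. Whether the replicate numbers pair the samples is not settled here. Same-numbered samples correlated in their deviations by -0.144 to 0.167, and differently numbered ones by -0.215 to 0.215. Deviations were taken within each group, and those of the Go arrays mirror each other by construction, so these values cannot decide it. With the replicate number as a block Go against enzastaurin had 1 call. Saturation limits what can be measured for the 23 members with 50% or more saturated pixels.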
